A study of Mus musculus with 6 samples.

Results

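Oxidative phosphorylation genes were chosen by name among the protein-coding rows of the deposited count table. Names that begin with Nduf, Uqcr, Cox4 to Cox8, Sdh or Atp5 gave 98 nuclear genes, and names that begin with mt-Nd, mt-Co, mt-Cytb or mt-Atp gave 13 genes of the mitochondrial genome, so that 111 of 54446 rows were members. Of these, 97 encode subunits of complexes I to V and 14 were grouped as assembly factors. Most of the latter are proteins that help build a complex without being part of the finished enzyme. Cox7a2l, which helps join complexes III and IV into supercomplexes, was also placed in that group. Atp5o is listed on 2 rows, so the 111 members carry 110 distinct symbols.

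Oxidative phosphorylation takes place in the inner mitochondrial membrane. Complexes I and II pass electrons from NADH and succinate to coenzyme Q, complex III passes them on to cytochrome c, complex IV hands them to oxygen, and complex V, the ATP synthase, uses the resulting proton gradient to make ATP. The nucleus encodes most subunits, the mitochondrial genome encodes core subunits of complexes I, III, IV and V, and complex II is wholly nuclear. In the intestine, absorptive enterocytes of the villus are rich in mitochondria and spend ATP on nutrient transport.

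The knockout libraries came from 3 mice with floxed Prkci alleles and a Cre recombinase driven by the villin promoter (Prkci flox/flox VillinCRE), which is active in intestinal epithelium. The control libraries came from 3 co-housed mice with the same floxed alleles and no Cre (Prkci flox/flox). The targeted gene codes for an atypical protein kinase C (iota/lambda) that acts in apical polarity, and the study asked how its loss in enterocytes alters the transcriptome. All mice were 3 to 4 months old, and epithelium was shaken loose from the small intestine (jejunum per the sample titles, jejunum and ileum per the series text) with EDTA and dithiothreitol. Immune and mesenchymal cells that come away with the epithelium lie outside the action of villin-driven Cre and contribute to each library. No label states anything else that differs between the genotypes.

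Libraries held 18972906, 25258885 and 26687856 counts in knockout replicates 1 to 3, and 22453798, 22511957 and 23008047 counts in control replicates 1 to 3. Levels are given as CPM, the counts per 1e6 counts of the library total after trimmed-mean scaling. Prkci stood at 21.5, 14.6 and 21.4 CPM in knockouts, against 44.6, 46.9 and 44.0 CPM in controls, with no overlap. The 8 epithelial markers summed to 11748 to 13520 CPM in knockouts, against 10724 to 11200 CPM in controls. Villus enterocyte markers (10 genes) summed to 40034 to 59607 CPM in knockouts, against 40359 to 47802 CPM in controls, and crypt and cycling markers (10 genes) to 339.6 to 811.8 CPM in knockouts, against 404.1 to 815.5 CPM in controls. Loci that overlap ribosomal RNA repeats took 4.89% to 5.91% of counts in knockouts, against 2.16% to 2.91% in controls. Markers of T cells (10 genes) summed to 283.7 to 847.1 CPM in knockouts, against 131.7 to 248.4 CPM in controls, and macrophage markers (10 genes) to 181.1 to 235.3 CPM in knockouts, against 128.6 to 183.9 CPM in controls. Mertk, which made up most of the macrophage sum, was at 0.22 on the log2 scale (knockout over control), while all 10 markers had a positive fold change, with a median of 1.56. The median level of the 10, in log2 CPM minus the mean of the controls, was 2.11, 0.94 and 1.42 in knockouts, against −0.16, −0.13 and 0.35 in controls. B and plasma cell markers (7 genes) summed to 147.2 to 324.5 CPM in knockouts, against 30.1 to 130.3 CPM in controls. Endothelial and mural markers (5 genes) summed to 4.18 to 17.3 CPM in knockouts, against 3.52 to 5.82 CPM in controls. Fibroblast markers (8 genes) summed to 185.7 to 282.9 CPM in knockouts, against 297.4 to 322.2 CPM in controls, but most of that sum was Fbln1 (−0.47), and the other 5 of the 6 tested had positive fold changes. Over these 6 the median fold change was 1.81 and the level was 3.12, −0.60 and 2.12 in knockouts, against −0.65, −0.36 and 1.27 in controls. Smooth muscle markers (8 genes) summed to 266.5 to 336.9 CPM in knockouts, against 245.2 to 261.6 CPM in controls, most of it Mylk (0.10). Of these 8, 5 were tested and all 5 had a positive fold change, with a median of 3.49 and a level of 3.34, −0.80 and 4.34 in knockouts, against −0.18, −0.41 and 0.59 in controls. Of the defining muscle genes, Cnn1 had 24, 0 and 70 counts in knockouts against 0, 2 and 3 in controls, and Lmod1 had 12, 0 and 34 counts in knockouts against 0 in each control. Xist and Ddx3y counts marked knockout replicates 2 and 3 and control replicate 3 as female and the other 3 as male, against the series text for knockout replicate 3 and control replicates 2 and 3. Sex is therefore unevenly spread over the genotypes. Fewer cells of a type and less RNA per cell cannot be told apart in such bulk samples, and the part of these cells, of ribosomal RNA and of sex in the results below was not tested beyond the fit with sex as a term.

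Nuclear oxidative phosphorylation genes were slightly lower in knockouts as a group, by about the same amount in most complexes, while genes of the mitochondrial genome varied between libraries within each genotype. No single member passed the test. Of the 101 members that passed the filter on low counts, 84 had a negative log2 fold change (knockout over control), against 49.3% of all 15068 genes tested. For the 91 nuclear members tested this count was 81, and their median log2 fold change was −0.18, against 0.01 over all genes. For the 10 mitochondrial members tested the median was 0.07.

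edgeR's quasi-likelihood test called 0 members at an adjusted p under 0.05. Over all genes it called 8 higher (0.0531%) and 1 lower (0.00664%). At an unadjusted p under 0.05, 15 members were lower and 0 higher, against 7.09% of all genes lower and 9.32% higher. In 24 members all 3 knockout libraries lay below all 3 control libraries and in 0 members above, against 11.7% and 10.0% of all genes. All 24 were nuclear. The DESeq2 Wald test called 1 member lower and 0 higher, against 1.94% and 3.62% of all genes, and that member was Cox7a1.

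The counts depended on single libraries. Without knockout replicate 1, 70 of the 91 nuclear members had a negative fold change, the nuclear median was −0.13, and edgeR called 3 members, Cox7a1 and Cox7a2l lower and Ndufa4 higher, against 7.44% of all genes lower and 10.0% higher. Those remaining knockouts were both female by Xist. At an unadjusted p under 0.05, 12 members were then lower and 2 higher, against 15.8% of all genes lower and 17.9% higher. The same count without knockout replicate 2 was 6 lower (4.09% of all genes), and without knockout replicate 3 it was 6 lower (4.06%). It was 22 lower (5.68%) and 1 higher (8.72%) without control replicate 1, 3 lower (4.27%) without control replicate 2 and 1 lower (3.64%) without control replicate 3. Leaving out each of these last 5 libraries called 0 members at an adjusted p under 0.05. With sex by Xist and Ddx3y as a term, a fit added after seeing the data, the nuclear median was −0.25 and no member was called.

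**Figure D1:**
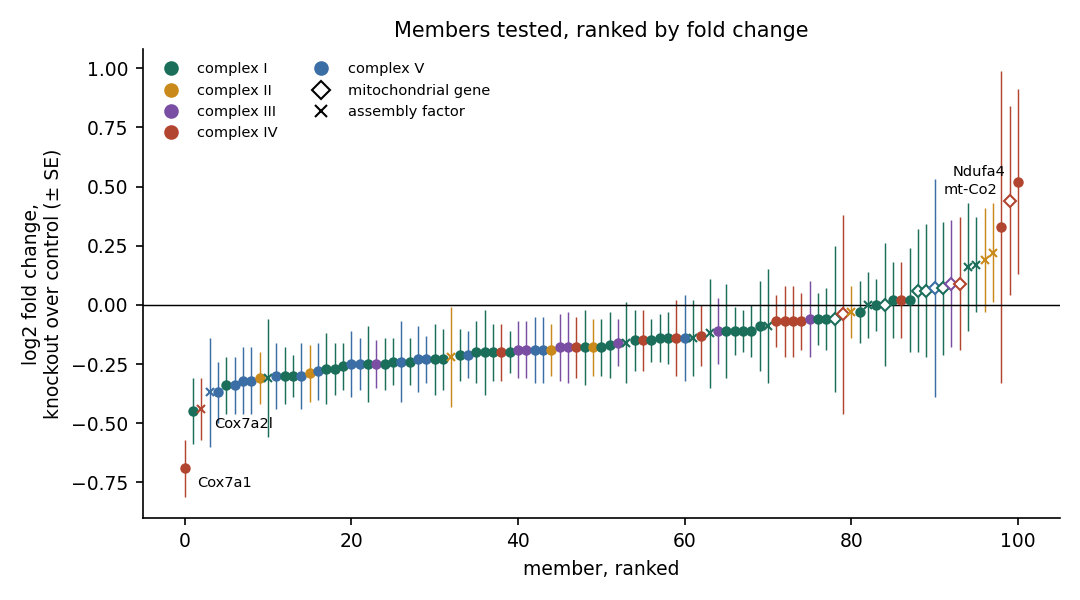
Log2 fold change (knockout over control, y axis, with the standard error as bars) of the 101 members tested, ranked along the x axis from lowest to highest. Colours mark the complex, open diamonds the mitochondrial genes and crosses the assembly factors; 84 members lie below 0, from −0.69 for Cox7a1 to 0.52 for Ndufa4 at the ends.

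Summed over all 98 nuclear members, transcripts stood at 9970, 11325 and 11304 CPM in knockouts, against 11412, 13200 and 13258 CPM in controls. The ratio of the means was 0.861. All 3 knockout sums lay below all 3 control sums, with knockout replicate 2 just below control replicate 1. The 13 mitochondrial members summed to 41715, 24793 and 44299 CPM in knockouts, against 40760, 28431 and 36601 CPM in controls. Here the genotypes overlapped, and replicate 2 was the lowest library of each genotype. Nearly all of these sums came from 7 members, at 41712, 24791 and 44296 CPM in knockouts, against 40757, 28429 and 36598 CPM in controls. The other 6 had counts near 0 that are not read as low transcript levels, as set out below. The sums, and the shares and ratios that follow, are therefore not read as the output of the whole mitochondrial genome.

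As shares of all counts, with no scaling, nuclear members took 1.04%, 1.03% and 1.06% in knockouts, against 1.16%, 1.41% and 1.38% in controls. These shares did not overlap. Mitochondrial members took 4.35%, 2.25% and 4.14% in knockouts, against 4.13%, 3.03% and 3.80% in controls, which overlapped. The ratio of mitochondrial to nuclear member counts, which does not depend on scaling, was 4.18, 2.19 and 3.92 in knockouts, against 3.57, 2.15 and 2.76 in controls. The mean of its log2 was 0.25 above that of controls in knockouts, against a standard deviation of 0.51 in knockouts and 0.37 in controls (n = 3 each, unpaired). Between knockout and control of the same replicate number the difference was 0.23, 0.02 and 0.51. No label says that these numbers mark pairs, and it was not tested. The difference between the means was 0.08 without knockout replicate 1, 0.55 without knockout replicate 2, 0.13 without knockout replicate 3, 0.44 without control replicate 1 and 0.07 without control replicate 2. Ribosomal RNA repeat loci, which took more counts in knockouts, add to the total that such shares are divided by.

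**Figure D2:**
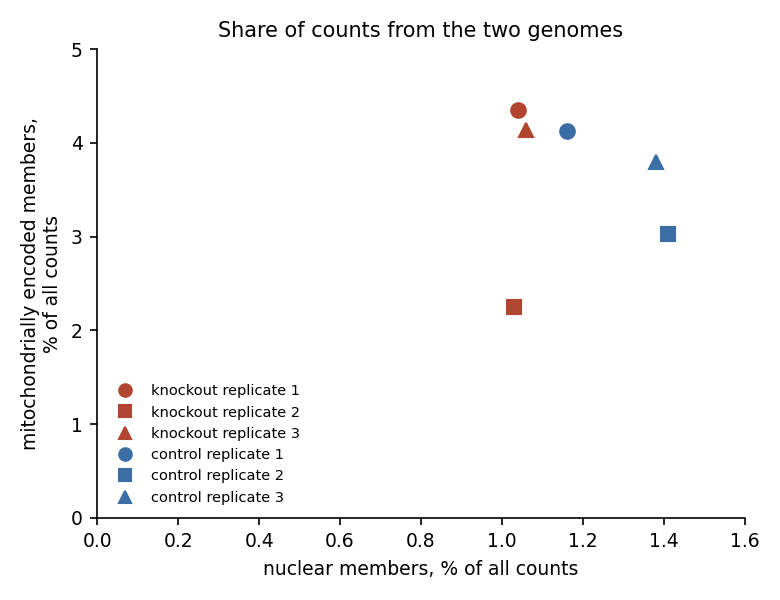
Share of all counts from the 98 nuclear members (x axis, %) and from the 13 mitochondrially encoded members (y axis, %), with 1 point per library. The knockout libraries lie at 1.03% to 1.06% on the x axis, left of the controls at 1.16% to 1.41%, while on the y axis the genotypes overlap.

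In complex V, the ATP synthase, all 16 nuclear subunits tested had a negative log2 fold change, between −0.37 and −0.14, with a median of −0.25. In 7 of them the genotypes did not overlap (Atp5a1, Atp5b, Atp5c1, Atp5g3, Atp5h, Atp5j and Atp5mpl), and 3 had an unadjusted p under 0.05. Of all genes tested, 11.7% lay lower without overlap and 7.09% were lower at that p. Summed over its nuclear subunits, transcripts stood at 3839, 4199 and 4108 CPM in knockouts, against 4370, 5328 and 5219 CPM in controls, a ratio of 0.814. The means were 4048 ± 187.0 CPM in knockouts and 4972 ± 524.5 CPM in controls (SD, n = 3 each). Each knockout sum lay below the lowest control.

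Atp5b, the catalytic beta subunit and the nuclear member with the most reads, had 1178, 1265 and 1233 CPM in knockouts, against 1325, 1669 and 1603 CPM in controls. Its log2 fold change was −0.32 (SE 0.14, edgeR adjusted p = 0.322). Atp5a1, the alpha subunit that alternates with beta in the catalytic head, had 926.2, 975.0 and 948.6 CPM in knockouts, against 1031, 1274 and 1203 CPM in controls. Both genes lay lower in every knockout than in any control, and in both control replicate 1 was the lowest control.

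Atp5c1 encodes the gamma subunit, the central shaft that turns in the head. It had 227.2, 252.4 and 270.1 CPM in knockouts, against 282.5, 344.4 and 345.4 CPM in controls, a log2 fold change of −0.37 (SE 0.13, edgeR adjusted p = 0.236). Atp5g1, Atp5g2 and Atp5g3 are separate genes for the same mature subunit c, which forms the membrane rotor. Atp5g3, with most of their counts, had 321.5, 363.2 and 350.3 CPM in knockouts, against 393.1, 455.4 and 464.5 CPM in controls, a log2 fold change of −0.34 (SE 0.12, edgeR adjusted p = 0.240) with no overlap. Atp5g1 (−0.19) and Atp5g2 (−0.24) overlapped between genotypes. Atp5h, a stator subunit, has 80.5% of its transcript covered by matches at 201 other loci, at 95% identity or more. Short matches count here, as in Sdhaf2, with 359 loci over 4.0% of its transcript. The loci matched by Atp5h therefore need not be copies of the gene. Atp5h was the only one of 98 nuclear members at or above 80%. Its copy Gm5051 holds 71.3% at 95.1% identity and had 0 counts. Some members under that cut have closer copies, such as Ndufs3 (75.7% at 98.6% identity), the tested row of Atp5o (76.7% at 97.0%) and Atp5l (71.9% at 96.7%). The part of copies in these values was not tested, so the values of these genes are uncertain.

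Complex I, the NADH dehydrogenase and the largest of the complexes, had 36 nuclear subunits, all tested. Of these 34 had a negative fold change, with a median of −0.19 and a range of −0.45 to 0.02. In 11 the genotypes did not overlap, against 11.7% of all genes lower, and 7 had an unadjusted p under 0.05, against 7.09%. These nuclear subunits summed to 2040, 2242 and 2302 CPM in knockouts, against 2270, 2617 and 2623 CPM in controls. The means were 2195 ± 137.5 CPM in knockouts and 2503 ± 201.9 CPM in controls (SD, n = 3 each). Knockout replicate 3 lay above control replicate 1, so these sums overlapped.

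Ndufb10, an accessory subunit of the membrane arm, had the lowest fold change of these. It had 65.9, 57.8 and 60.8 CPM in knockouts, against 67.8, 92.2 and 92.8 CPM in controls, a log2 fold change of −0.45 (SE 0.14, edgeR adjusted p = 0.206). Control replicate 1 lay close to the knockouts. Ndufab1, the mitochondrial acyl carrier protein, is shared between complex I and fatty acid synthesis. It had 44.3, 48.5 and 51.1 CPM in knockouts, against 59.1, 59.0 and 59.6 CPM in controls, and here all 3 controls lay close together. Its log2 fold change was −0.30 (SE 0.09, edgeR adjusted p = 0.202).

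Of the subunits that carry electrons, Ndufv1, which binds NADH, had 112.2, 100.3 and 102.3 CPM in knockouts, against 114.2, 148.1 and 137.0 CPM in controls (log2 fold change −0.34, SE 0.12, edgeR adjusted p = 0.247). Ndufs1, which carries iron-sulfur clusters, was at −0.11 without overlap. Ndufs4 (−0.00), Ndufa12 (0.02) and Ndufc2 (0.02) stood at the other end of the complex, and each of these 3 turned sign in at least 5 of the alternative fits.

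Complex II, succinate dehydrogenase, also serves the tricarboxylic acid cycle. All 4 of its genes had negative fold changes, between −0.31 and −0.18. Sdha, the flavoprotein that oxidises succinate, had 408.4, 436.8 and 431.7 CPM in knockouts, against 500.4, 559.5 and 518.2 CPM in controls, without overlap (log2 fold change −0.31, SE 0.11, edgeR adjusted p = 0.249). Sdhb, the iron-sulfur subunit, had 142.9, 164.9 and 165.9 CPM in knockouts, against 172.8, 205.3 and 199.6 CPM in controls, also without overlap. The membrane anchors Sdhc (−0.18) and Sdhd (−0.19) overlapped.

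All 8 nuclear genes of complex III tested had negative fold changes, with a median of −0.18. In 2 of them, Uqcrb and Uqcrh, the genotypes did not overlap, against 11.7% of all genes lower. Uqcrc1, a core subunit with the most reads among them, had 261.2, 312.3 and 319.0 CPM in knockouts, against 291.3, 365.6 and 354.1 CPM in controls, which overlapped (−0.18). Uqcrfs1, the Rieske iron-sulfur protein, was at −0.19 with overlap. Cyc1, the cytochrome c1 of this complex that the name rule does not take in, was also at −0.19.

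Complex IV, cytochrome c oxidase, was less uniform. Its 13 nuclear subunits tested had a median of −0.07, and both the lowest and the highest fold change of all members belonged to it. The standard deviation across its subunits was 0.28 on the log2 scale, against 0.10 in complex I and 0.06 in complexes II, III and V each. Farthest out in this complex were Cox7a1 (−0.69), Ndufa4 (0.52) and Cox6b2 (0.33, SE 0.66), the last at no more than 2.07 CPM. The other tested subunits of complex IV lay between −0.20 and 0.02. Summed over its nuclear subunits, transcripts stood at 1950, 2502 and 2516 CPM in knockouts, against 2369, 2442 and 2656 CPM in controls, with knockout replicate 1 apart from the other 5 libraries. Cox4i1, a regulatory subunit with the most reads among them, had 383.9, 462.0 and 490.9 CPM in knockouts, against 479.6, 491.1 and 514.2 CPM in controls (−0.15, with overlap). Without knockout replicate 1, the median of these subunits was −0.00, and it was −0.19 with sex by Xist and Ddx3y as a term. Only 1 of them, Cox7a1, was lower without overlap, against 11.7% of all genes. It was also the only 1 with an unadjusted p under 0.05, against 7.09% of all genes lower.

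**Figure D3:**
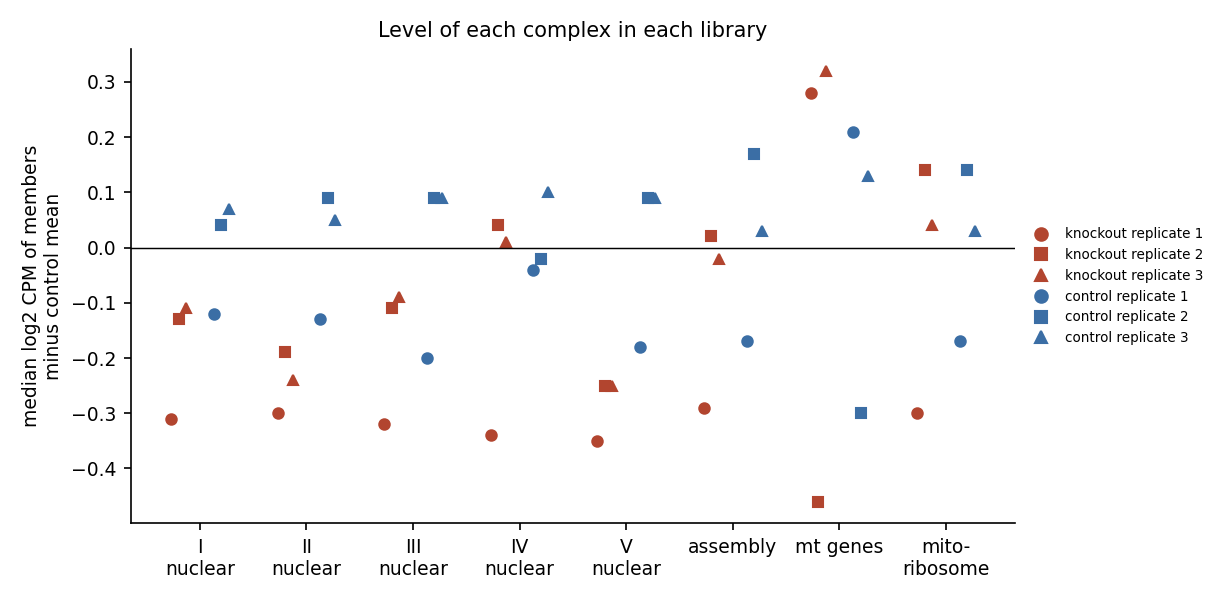
Level of each complex in each library, as the median over its tested members of log2 CPM (pseudocount 2) minus the mean of the controls (y axis), for nuclear subunits of complexes I to V, assembly factors, the 7 mitochondrial genes above 10 CPM and the mitochondrial ribosome. Knockout libraries stand left of controls and symbols mark the replicate; in complex V the knockouts lie at −0.35, −0.25 and −0.25, below the controls at −0.18, 0.09 and 0.09, and in the mitochondrial genes replicate 2 is lowest in both genotypes.

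In each of these nuclear groups knockout replicate 1 was the lowest library, and control replicate 1 was the lowest control. Over all nuclear members the level was −0.32, −0.12 and −0.11 in knockout replicates 1 to 3, against −0.13, 0.06 and 0.09 in controls. Control replicate 1 thus lay at the level of knockout replicates 2 and 3. Between libraries of the same number, which no label gives as pairs, the difference was −0.20, −0.18 and −0.20. The same 2 libraries were lowest in the mitochondrial ribosome, at −0.30, 0.14 and 0.04 in knockouts, against −0.17, 0.14 and 0.03 in controls, where the other libraries of the genotypes did not separate.

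Cox7a1 had the lowest fold change of all members and the smallest p. It encodes an isoform of a small complex IV subunit best known from heart and skeletal muscle, and Cox7a2 is the isoform found in most tissues. Cox7a1 (ENSMUSG00000074218.3, chromosome 7, 30184144 to 30186078, plus strand) had 53.3, 40.2 and 43.9 CPM in knockouts, against 72.4, 72.8 and 75.9 CPM in controls. Each knockout lay below every control, and the controls lay close together. The means were 45.8 ± 6.75 CPM in knockouts and 73.7 ± 1.94 CPM in controls (SD, n = 3 each), a log2 fold change of −0.69 (SE 0.12). The edgeR adjusted p was 0.105, and it was past the threshold under DESeq2 (0.000649) and without knockout replicate 1 (0.00219). With no filter on low counts it was 0.0449, and Cox7a1 was then the 1 member called lower with 0 higher, against 0.312% of all genes lower and 0.694% higher. Over all alternatives the log2 fold change ran from −0.81 to −0.59.

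Cox7a2 did not show this, at 143.5, 196.6 and 195.0 CPM in knockouts, against 182.2, 175.1 and 204.7 CPM in controls (−0.07). For 100 counts of Cox7a2 there were 37.1, 20.4 and 22.5 counts of Cox7a1 in knockouts, against 39.7, 41.6 and 37.1 in controls, so the ratio in knockout replicate 1 equalled the lowest control. Cox7a2l, a related protein that helps join complexes III and IV into supercomplexes, had 40.4, 34.8 and 37.7 CPM in knockouts, against 42.8, 55.0 and 55.7 CPM in controls, without overlap. Its log2 fold change was −0.44 (SE 0.13, edgeR adjusted p = 0.198, and 0.0468 without knockout replicate 1). As a marker of muscle, Myh11, the smooth muscle myosin, had 254, 13 and 615 counts in knockouts, against 6, 8 and 28 in controls, so it was high in knockout replicates 1 and 3 and near the controls in knockout replicate 2.

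Ndufa4 had the highest fold change. It was first assigned to complex I and is now counted with complex IV. Ndufa4 (ENSMUSG00000029632.7, chromosome 6, 11900292 to 11907497, minus strand) had 34.9, 120.3 and 96.6 CPM in knockouts, against 60.0, 59.6 and 55.7 CPM in controls. Knockout replicates 2 and 3 lay above all controls and knockout replicate 1 below all of them. The log2 fold change was 0.52 (SE 0.39, edgeR adjusted p = 0.528). It was 0.89 (adjusted p = 0.00326) without knockout replicate 1, 0.19 without knockout replicate 2 and 0.10 with sex by Xist and Ddx3y as a term. For 100 counts of Cox4i1 there were 9.08, 26.0 and 19.7 counts of Ndufa4 in knockouts, against 12.5, 12.1 and 10.8 in controls.

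**Figure D4:**
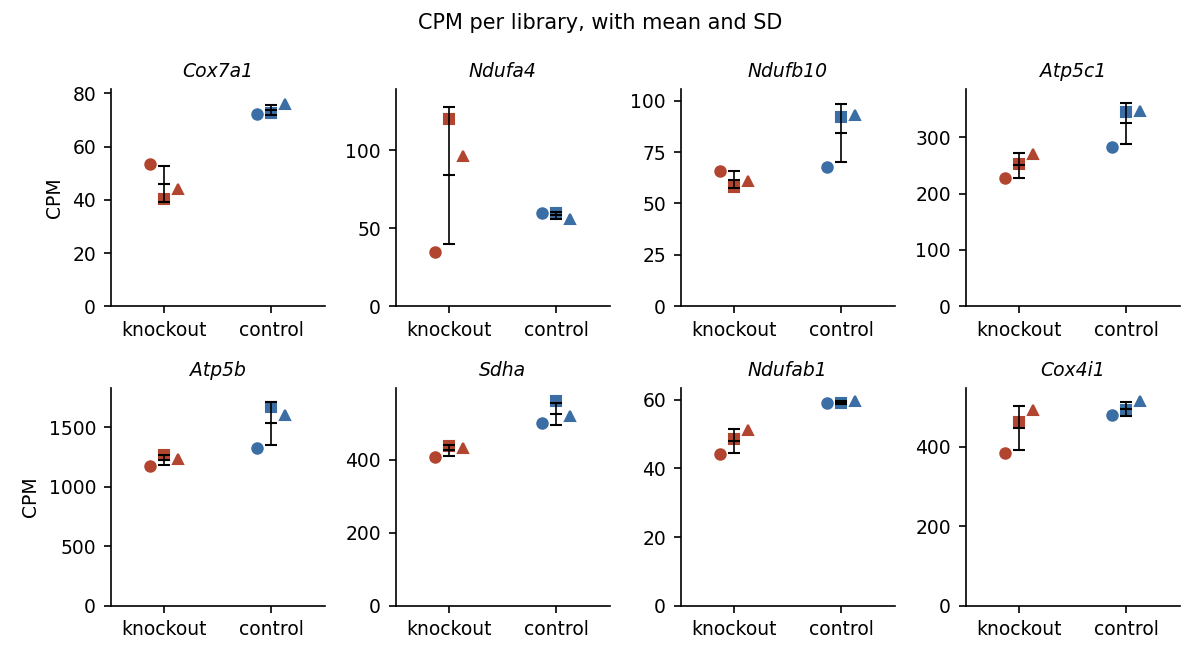
CPM (y axis, from 0) of 8 nuclear members in knockout libraries (red, left) and control libraries (blue, right), with circles, squares and triangles for replicates 1, 2 and 3 and bars for the mean and standard deviation. Cox7a1 lies at 40.2 to 53.3 CPM in knockouts, below the controls at 72.4 to 75.9 CPM, while the knockouts of Ndufa4 lie on both sides of the controls.

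Other genes that come in tissue or germ-line isoforms were mostly represented by 1 form. Cox6a1 had 257.9, 378.3 and 362.0 CPM in knockouts, against 323.7, 310.4 and 347.7 CPM in controls (0.02), and its muscle form Cox6a2 reached at most 0.126 CPM. Cox8a was at −0.07, while the muscle form Cox8b reached at most 0.0506 CPM and Cox8c had 0 counts in all libraries. Cox6b1 was at −0.13, and the testis form Cox6b2 stood between 0.335 and 2.07 CPM. Cox4i2, a lung and hypoxia isoform, reached at most 0.0400 CPM, Ndufa4l2, which is induced by hypoxia, at most 0.167 CPM, and Cox7b2 and the second row of Atp5o had 0 counts. Cox4i2, Cox6a2, Cox7b2, Cox8b, Cox8c, Ndufa4l2 and that row of Atp5o are the 7 nuclear members that did not pass the filter.

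The 14 assembly factors averaged 0.704 to 30.0 CPM per kb of exon over all libraries and were mixed in direction. Of them, 9 had a negative fold change, with a median of −0.10. Cox7a2l was the single one in which the genotypes did not overlap, against 11.7% of all genes lower. Ndufaf1 to Ndufaf8, which help assemble complex I, ranged from −0.31 for Ndufaf2 to 0.17 for Ndufaf5. Sdhaf1 to Sdhaf4, which help assemble complex II, ranged from −0.22 for Sdhaf4 to 0.22 for Sdhaf3. Atp5s, grouped with complex V, was at −0.37 with an edgeR adjusted p of 0.451. The strand setting of the counting is not given in the sources used here, and some members overlap a gene of the other strand that had more counts. Ndufaf2 had 555 counts over all libraries against 4927 for Smim15, Ndufaf3 had 989 against 2168 for Impdh2, and Ndufb2 had 3314 against 4732 for Braf, so these 3 members are uncertain.

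Promoters of nuclear members were searched for short binding motifs because most nuclear subunits lay on the same side of 0. The window ran from 250 bases before to 50 after the start of the gene in RefSeq, and 80 of the 98 nuclear members had one. Motifs were matched letter for letter on both strands. GCGCATGCG, a site of nuclear respiratory factor NRF1, was in 10 of these promoters (12.5%), against 1.95% of 27025 gene promoters. AAGATGGCG, a site of YY1, was in 8 (10.0%), against 1.64%. CCGGAAGT, a site of GABP, was in 5 (6.25%), against 4.31%, and TCAAGGTCA, a site of the estrogen-related receptors, was in 2 (2.5%), against 0.466%. The remaining motifs searched were CACGTG (7.5% against 8.09%), CCAATC (23.8% against 18.2%) and GGGCGG (48.8% against 38.2%). No motif holds another within it. The 27025 promoters include genes not tested here, and shares among the 15068 genes tested were not taken.

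Members with the NRF1 motif had a median log2 fold change of −0.16 (10 tested, −0.28 to 0.17), and those with the YY1 motif −0.22 (8 tested, −0.25 to −0.00), close to −0.18 over all nuclear members. The promoters of Atp5k, a membrane subunit of complex V, and Ndufc1, a small subunit of complex I, are shown with the NRF1 and YY1 motifs in capitals. The NRF1 motif is matched on both strands of Atp5k, so its capitals run 1 base further. Those of Cox7a1 and Ndufa4, the genes at the ends of the range, are shown beside them and hold none of the first 4 motifs. All are from RefSeq on GRCm38.p6, written 5′ to 3′ along the gene, for Atp5k at chr5:108434350-108434649 (minus strand), for Ndufc1 at chr3:51408906-51409205 (minus strand), for Cox7a1 at chr7:30183921-30184220 (plus strand) and for Ndufa4 at chr6:11907401-11907700 (minus strand). A match is a description of these letters and says nothing of whether a factor was bound.
Atp5k promoter: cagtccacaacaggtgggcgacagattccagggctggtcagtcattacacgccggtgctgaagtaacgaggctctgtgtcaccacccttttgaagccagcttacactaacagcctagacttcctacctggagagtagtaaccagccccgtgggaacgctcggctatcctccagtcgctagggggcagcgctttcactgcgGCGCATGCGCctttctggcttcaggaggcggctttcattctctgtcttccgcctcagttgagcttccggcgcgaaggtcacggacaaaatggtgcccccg
Ndufc1 promoter: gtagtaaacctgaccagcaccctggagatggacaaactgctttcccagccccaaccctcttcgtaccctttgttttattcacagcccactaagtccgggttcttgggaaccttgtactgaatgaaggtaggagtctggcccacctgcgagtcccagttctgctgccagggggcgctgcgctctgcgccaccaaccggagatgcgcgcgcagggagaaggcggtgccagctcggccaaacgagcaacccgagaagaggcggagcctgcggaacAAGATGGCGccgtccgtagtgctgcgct
Cox7a1 promoter: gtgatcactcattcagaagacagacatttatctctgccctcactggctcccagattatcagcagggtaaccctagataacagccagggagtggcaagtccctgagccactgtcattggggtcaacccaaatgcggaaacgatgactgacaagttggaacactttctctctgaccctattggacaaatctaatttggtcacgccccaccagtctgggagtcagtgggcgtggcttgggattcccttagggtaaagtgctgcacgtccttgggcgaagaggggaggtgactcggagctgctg
Ndufa4 promoter: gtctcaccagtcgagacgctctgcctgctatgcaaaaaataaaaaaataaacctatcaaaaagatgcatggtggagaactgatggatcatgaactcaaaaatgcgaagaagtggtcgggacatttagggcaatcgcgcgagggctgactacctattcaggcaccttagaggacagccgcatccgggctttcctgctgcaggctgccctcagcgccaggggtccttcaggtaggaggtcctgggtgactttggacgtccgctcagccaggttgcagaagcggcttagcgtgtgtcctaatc

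The mitochondrial genome encodes 13 proteins, all of them members. Its genes are transcribed together as long precursors from both strands, which are then cut into single messages, and of the 13 only mt-Nd6 is read from the light strand. In these libraries 7 of the 13 were between 44.2 and 16590 CPM and the other 6 were at 1.34 CPM or lower in every library. No mitochondrial gene tested separated the genotypes.

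mt-Co1, the catalytic subunit of complex IV, had 15545, 9339 and 16590 CPM in knockouts, against 15777, 10597 and 12683 CPM in controls (log2 fold change 0.09, SE 0.28, edgeR adjusted p = 0.899). mt-Cytb, the cytochrome b of complex III, had 9545, 5522 and 9495 CPM in knockouts, against 8552, 6155 and 8350 CPM in controls (0.09). mt-Nd1, a membrane subunit of complex I beside the coenzyme Q site, had 6393, 4301 and 8133 CPM in knockouts, against 6767, 4707 and 6460 CPM in controls (0.07). In all 3, replicate 2 was the lowest library of each genotype and the genotypes overlapped.

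mt-Nd2, mt-Nd4 and mt-Nd5 belong to the proton-pumping part of complex I. mt-Nd2 had 2487, 1233 and 2283 CPM in knockouts, against 2429, 1515 and 2296 CPM in controls (−0.06). mt-Nd4 had 3358, 1873 and 3426 CPM in knockouts, against 3079, 2446 and 3158 CPM in controls (−0.00), and mt-Nd5 had 4329, 2461 and 4282 CPM in knockouts, against 4065, 2964 and 3591 CPM in controls (0.06). In these 3 genes too, replicate 2 was the lowest library of each genotype and the genotypes overlapped.

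mt-Nd6 had 54.3, 61.4 and 85.3 CPM in knockouts, against 88.4, 44.2 and 60.0 CPM in controls (0.06). It lies at 13552 to 14070 of the mitochondrial genome and overlaps mt-Nd5 on the other strand only as far as 13565. mt-Nd5 had 498343 counts over all libraries against 9117 for mt-Nd6. The overlap is short, but the strand setting of the counting is not given, so the value of mt-Nd6 is uncertain. Knockout replicate 2 was not the lowest knockout here. Per 100 counts of mt-Co1, counts of mt-Cytb were 61.4, 59.1 and 57.2 in knockouts, against 54.2, 58.1 and 65.8 in controls, and these ratios also overlapped for mt-Nd1, mt-Nd2, mt-Nd4, mt-Nd5 and mt-Nd6. Divided by the length of its exons, mt-Co1 averaged 8687 CPM per kb over all libraries, mt-Cytb 6938, mt-Nd1 6402, mt-Nd4 2097, mt-Nd5 1982, mt-Nd2 1966 and mt-Nd6 126.4. These lengths include parts of mt-Nd4 (63.6%) and mt-Co1 (31.3%) that also lie in near-identical copies on chromosome 1, described below. How reads from such parts were counted is not given, so the order of these levels is uncertain. The nuclear member with the highest level per length was Cox6a1, at 470.1 CPM per kb.

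The 6 genes near 0 were mt-Co2, mt-Atp8, mt-Atp6, mt-Co3, mt-Nd3 and mt-Nd4l. They lie next to each other on the genome, between mt-Co1 and mt-Nd4, in a region transcribed in the same precursor as their abundant neighbours. mt-Co2 and mt-Co3 are core subunits of complex IV, mt-Atp6 and mt-Atp8 belong to the membrane part of complex V, and mt-Nd3 and mt-Nd4l belong to complex I. mt-Co2 had 1.26, 0.610 and 1.32 CPM in knockouts, against 0.924, 0.542 and 0.879 CPM in controls. mt-Co3 had 1.01, 0.828 and 0.641 CPM in knockouts, against 0.660, 0.542 and 1.34 CPM in controls, and mt-Atp6 had 0.556, 0.566 and 1.32 CPM in knockouts, against 1.10, 0.708 and 0.544 CPM in controls. All 6 together had 60, 51 and 87 counts in knockouts, against 68, 49 and 70 in controls, which overlapped. mt-Nd3, mt-Nd4l and mt-Atp8 had 23, 7 and 1 counts over all 6 libraries and did not pass the filter.

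A stretch of chromosome 1, from 24611535 to 24616197 on mm10, holds 7 genes annotated as pseudogenes that are near-identical to this part of the mitochondrial genome. Of the 6 low genes, 5 have 99.0% to 99.9% of their length in such a copy, at 99.7% to 100% identity. mt-Atp8 has 21.1% in an annotated copy, and the rest lies in the gap between mt-Co2 and mt-Atp6, which spans 233 bases both on the mitochondrial genome and between their copies on chromosome 1. The abundant genes have less of their length in the copies on chromosome 1, 63.6% for mt-Nd4, 31.3% for mt-Co1 and 0.0% for mt-Nd1, mt-Nd2, mt-Nd5, mt-Nd6 and mt-Cytb. mt-Co1 and mt-Nd4 thus keep 1062 and 502 bases outside these copies. Other annotated pseudogenes, less similar, hold the whole of mt-Co1 (Gm13340, 97.6% identity), 49.1% of mt-Nd2 (Gm13339, 96.7%) and 52.3% of mt-Nd5 (Gm4076, 95.2%), and Gm13341 holds the whole of mt-Co2 at 95.9%. The 7 copies themselves had 81, 74 and 130 counts in knockouts, against 154, 93 and 102 in controls.

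Reads that fit both places equally cannot be assigned to either by sequence alone. How the authors' counting treated such reads is not given in the sources used here, and its part in the low counts was not tested. The low values of these 6 genes are therefore not read as low transcript levels. The first 150 bases of mt-Nd3 and mt-Co2 are shown with those of their copies Gm28438 and Gm28661, written 5′ to 3′ along the gene, from GENCODE release M21 on the build of the files. mt-Nd3 lies at chrM:9459-9608 (plus strand) and Gm28438 at chr1:24612970-24613119 (minus strand). mt-Co2 lies at chrM:7013-7162 (plus strand) and Gm28661 at chr1:24615416-24615565 (minus strand). The capital marks the single difference over the 345 bases aligned for mt-Nd3, T3C, counted from 1 at the first base of mt-Nd3, with the base of mt-Nd3 first and that of the copy last. mt-Co2 and its copy have 0 differences over 681 bases.
mt-Nd3: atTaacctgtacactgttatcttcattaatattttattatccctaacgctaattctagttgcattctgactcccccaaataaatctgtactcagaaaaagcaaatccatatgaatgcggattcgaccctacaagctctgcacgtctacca
Gm28438: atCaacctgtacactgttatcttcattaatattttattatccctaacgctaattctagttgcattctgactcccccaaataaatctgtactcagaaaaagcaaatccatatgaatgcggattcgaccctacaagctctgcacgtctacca
mt-Co2: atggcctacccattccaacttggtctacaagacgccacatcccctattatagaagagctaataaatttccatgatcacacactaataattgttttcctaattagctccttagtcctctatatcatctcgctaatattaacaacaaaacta
Gm28661: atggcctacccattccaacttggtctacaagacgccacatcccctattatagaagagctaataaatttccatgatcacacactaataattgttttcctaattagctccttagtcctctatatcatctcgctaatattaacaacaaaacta

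**Figure D5:**
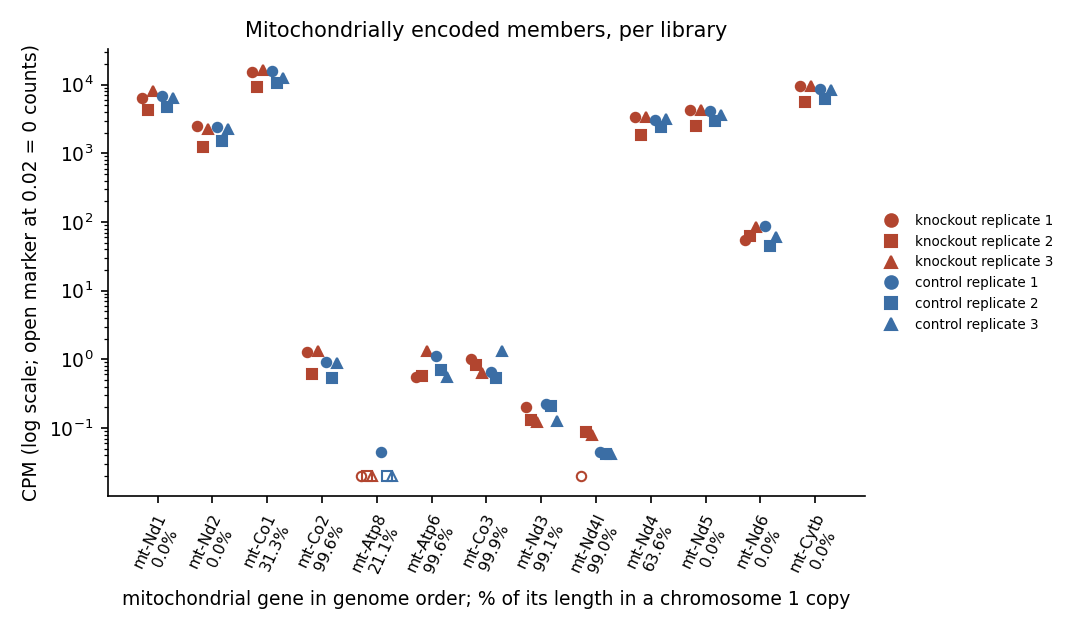
CPM (y axis, log scale) of the 13 mitochondrially encoded members in genome order (x axis), with the percentage of each gene's length found in a copy on chromosome 1 beneath its name. Knockout libraries stand left of controls, symbols mark the replicate and open markers a count of 0; the 6 genes from mt-Co2 to mt-Nd4l lie at or below 1.34 CPM and the other 7 at or above 44.2 CPM, with the genotypes overlapping in each gene tested.

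Other mitochondrial pathways were read from the same fit, and 0 of their genes were called. The tricarboxylic acid cycle, which feeds electrons to complexes I and II, was close to the nuclear members. Of its 17 genes, 16 had a negative fold change, with a median of −0.19. In 7 the genotypes did not overlap, all lower, against 11.7% of all genes. Idh3g, a regulatory subunit of isocitrate dehydrogenase, had 56.0, 57.1 and 56.7 CPM in knockouts, against 68.5, 86.4 and 77.8 CPM in controls (log2 fold change −0.45, SE 0.11, edgeR adjusted p = 0.145). Ogdh, a subunit of oxoglutarate dehydrogenase with the most reads of the list, had 1097, 1240 and 1246 CPM in knockouts, against 1151, 1173 and 1147 CPM in controls, which overlapped (0.05).

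Regulators of mitochondrial biogenesis include coactivators and receptors that switch on genes of oxidative phosphorylation. Of the 14 tested, 11 had a negative fold change, with a median of −0.19. In 6 the genotypes did not overlap, all lower, against 11.7% of all genes. Ppargc1a, the coactivator PGC-1alpha, had 115.9, 65.9 and 62.0 CPM in knockouts, against 119.8, 157.4 and 140.4 CPM in controls. Knockout replicate 1 lay just below control replicate 1, and the other 2 knockouts lay much lower. Its log2 fold change was −0.78 (SE 0.25, edgeR adjusted p = 0.213). Ppara, a fatty acid receptor, had 15.4, 17.5 and 19.0 CPM in knockouts, against 26.5, 25.3 and 26.7 CPM in controls (−0.60, SE 0.12, edgeR adjusted p = 0.118).

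Esrra and Esrrg encode estrogen-related receptors, partners of PGC-1alpha. Esrra had 137.0, 126.6 and 128.2 CPM in knockouts, against 144.8, 161.5 and 161.1 CPM in controls (−0.25, edgeR adjusted p = 0.270). Esrrg had 3.74, 2.40 and 2.12 CPM in knockouts, against 4.58, 7.67 and 8.71 CPM in controls (−1.35, SE 0.33, edgeR adjusted p = 0.142). Neither overlapped between genotypes. Pprc1, another coactivator of the family, had 13.4, 22.5 and 20.2 CPM in knockouts, against 11.0, 14.4 and 10.5 CPM in controls (0.65, edgeR adjusted p = 0.239), and here the genotypes overlapped. Nrf1 (−0.08) and Gabpa (−0.29) overlapped as well.

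The machinery that reads the mitochondrial genome had medians near that of all genes. Of 77 genes of the mitochondrial ribosome tested, 41 had a negative fold change, with a median of −0.02, and in 4 the genotypes did not overlap, all lower, against 11.7% of all genes. Genes that maintain and transcribe mitochondrial DNA had a median of −0.00 (15 tested), and those that process its RNA −0.02 (15 tested). Tfam, which packs mitochondrial DNA and starts its transcription, had 20.4, 20.7 and 21.3 CPM in knockouts, against 23.6, 29.1 and 24.1 CPM in controls, without overlap (−0.30, SE 0.13, edgeR adjusted p = 0.301). The genes with the most reads in these 3 lists, Mrpl15 of the large ribosomal subunit (−0.04), the DNA polymerase Polg (0.08) and Lrpprc, which stabilises mitochondrial messages (−0.18), all overlapped.

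Carriers, pores and import genes had a median of −0.04 (17 tested). Slc25a5, an ATP/ADP carrier with the most reads of this list, was at −0.04 with overlap. Vdac3, a pore of the outer membrane, had 30.6, 25.1 and 24.3 CPM in knockouts, against 35.6, 41.0 and 40.3 CPM in controls, without overlap (−0.55, SE 0.13, edgeR adjusted p = 0.137). Coenzyme Q synthesis had a median of −0.06 (13 tested) and held the lowest fold change of any gene of these pathways, in Coq8a, a kinase-like regulator, with 7.23, 3.92 and 4.97 CPM in knockouts, against 9.99, 20.6 and 12.2 CPM in controls (−1.41, SE 0.34, edgeR adjusted p = 0.138). Each knockout lay below every control, as in Coq9 (−0.24), the gene with the most reads of this list.

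Assembly genes outside the name rule had medians of −0.01 for complex I (8 tested), −0.13 for complex III (6 tested), −0.11 for complex IV (21 tested) and −0.18 for complex V (4 tested). The genes with the most reads were Timmdc1 (−0.07) for complex I and Ttc19 (−0.06) for complex III, both with overlap, and Coa5 (−0.26) for complex IV, with no overlap. In complex IV assembly 6 genes were lower and 1 higher without overlap, against 11.7% and 10.0% of all genes. The higher one was Cox17, a copper chaperone, with 39.6, 42.3 and 40.4 CPM in knockouts, against 35.2, 33.7 and 35.7 CPM in controls (0.23, SE 0.09, edgeR adjusted p = 0.296). Atpif1, the inhibitor of complex V, had 166.7, 152.9 and 181.0 CPM in knockouts, against 182.9, 208.4 and 224.6 CPM in controls, without overlap (−0.30, SE 0.12, edgeR adjusted p = 0.288). Cycs, which encodes the cytochrome c that carries electrons to complex IV, was at 0.13 with overlap, and Usmg5, a subunit of complex V outside the name rule, at −0.25 with overlap.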

How the data were processed

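RNA was sequenced from 6 libraries, 3 per genotype, each from 1 mouse. Poly-A selection and a kit for ribosomal RNA removal are both listed in the labels. STAR 2.5.0a, Trim Galore, FastQC and bcl2fastq 2.17 are named with build mm10, per the submitters' processing notes. What counted the reads, on which strand, and what became of reads that fit several places is not given in the sources used here. Values deposited by the authors are whole-number counts of reads with no normalization. Sample titles gave the groups and replicate numbers. Nothing beyond the separate mice is stated of the replicates, so p-values measure the spread between these samples.

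Counts were tested over all genes with edgeR 4.0.16 in R 4.3.3 (trimmed-mean scaling, the default filter with a minimum count of 10, a two-sided quasi-likelihood test of genotype with no covariate, Benjamini-Hochberg adjustment, threshold 0.05), which left 15068 genes. Standard errors were taken from the fold change and its F statistic. The test was checked on simulated data. Alternatives used DESeq2 1.42.0, limma 3.58.1 and other filters, scalings and covariates. Lists were described by counts and medians, with no set test. Mitochondrial copies were found by aligning member transcripts to all GENCODE M21 transcripts (at least 95% identity). Exon lengths came from the same release, in which 104 of the 111 members had the same identifier version and coordinates. Promoters came from RefSeq.

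Members and lists were chosen with earlier results of these data known. Genes named were all mitochondrial members, those with the most reads of each complex and list, the 6 smallest p-values and 3 largest and smallest fold changes in each direction, isoform groups and assembly factors. Some genes that meet these rules are not reported here. Other list genes were chosen after their values were seen. Libraries of the same number deviated weakly together from their group means (correlations of 0.117, 0.119 and 0.149, against −0.143 to 0.00929 for other pairs). No label says what the numbers mark, and these correlations come from the same counts. By Xist and Ddx3y both replicates 1 were male and both replicates 3 female, and the part of sex in the correlations was not tested. Differences by number are therefore descriptions and do not establish pairs.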

Additional observations from a re-analysis of the deposited data

How the results depend on the processing

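The nuclear median stayed negative in all 18 settings, but no member call held across them. With library totals the all-gene median was −0.10, and relative to it nuclear members stood at −0.20. In that setting the medians were −0.30 for nuclear members, −0.31 for complex I and −0.36 for complex II. With the replicate block, for numbers that no label gives as pairs, 0 genes and 0 members were called, against 9 genes with genotype alone. With that block 9 members had an unadjusted p under 0.05. Genes called over all genes numbered 16 with library totals, 284 with no filter, 839 with DESeq2, 5 with limma-voom and 4 with sex of the series text as a term. Leaving out each library gave 0 to 2700, the highest without knockout replicate 1. Members called were 1 with no filter (against 0.312% of all genes lower and 0.694% higher) and 1 with DESeq2, Cox7a1 each time, and 0 to 3 on leaving out each library. Members with an unadjusted p under 0.05 were 35 with library totals, 23 with protein-coding genes alone, 8 with sex of the series text and 7 with no filter. The share of all genes at this threshold was not taken in these settings or with the replicate block. These counts are therefore not read as a result about the members. The mitochondrial median ran from −0.09 to 0.30 on leaving out each library. The mitochondrial median of complex V was −0.88 with no filter, which adds mt-Atp8 with its single count, and had no value at the 1 CPM filter.

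The sign of some single genes turned, and the cause was not tested. With library totals these were Cox6a1 (−0.10), Ndufa12 (−0.10), Ndufaf8 (−0.11), Ndufc2 (−0.11), Ogdh (−0.07), Polg (−0.03), mt-Atp6 (−0.05), mt-Co1 (−0.01), mt-Cytb (−0.00), mt-Nd1 (−0.03), mt-Nd5 (−0.03) and mt-Nd6 (−0.05). With sex by Xist they were Cox6a1 (−0.10), Ndufa12 (−0.10), Ndufaf8 (−0.01), Ndufc2 (−0.18) and mt-Nd4 (0.01), and with protein-coding genes alone Ndufaf8 (−0.01) and Ndufc2 (−0.00). mt-Co3 was at 0.04 with limma-voom and 0.02 with the replicate block, and Ndufc2 at −0.03 with each. mt-Nd4 was at 0.00 with DESeq2 size factors, the DESeq2 test and the 1 CPM filter, and at 0.01 with no filter. Ndufs4 was at 0.00 with DESeq2 size factors and the 1 CPM filter, 0.01 with the DESeq2 test and 0.02 with no filter. On leaving out each library the values ran from −0.06 to 0.18 for Cox6a1, −0.09 to 1.45 for Cox6b2, −0.13 to 0.06 for Cox7a2 and for Cox8a, −0.05 to 0.17 for Ndufa12, −0.13 to 0.25 for Ndufc2, −0.04 to 0.08 for Ndufs4, −0.20 to 0.09 for Ndufaf3, −0.00 to 0.36 for Ndufaf6, −0.32 to 0.06 for Ndufaf7, −0.03 to 0.03 for Ndufaf8 and −0.07 to 0.01 for Sdhaf2. For other pathway genes they ran from −0.11 to 0.04 for Mrpl15, −0.22 to 0.04 for Nrf1, −0.02 to 0.19 for Polg, −0.17 to 0.05 for Slc25a5, −0.12 to 0.02 for Timmdc1 and −0.17 to 0.03 for Ttc19. For mitochondrial genes they ran from −0.46 to 0.41 for mt-Atp6, −0.05 to 0.32 for mt-Co1 and for mt-Cytb, −0.29 to 0.45 for mt-Co3, −0.15 to 0.30 for mt-Nd1, −0.24 to 0.21 for mt-Nd2, −0.13 to 0.24 for mt-Nd4, −0.07 to 0.30 for mt-Nd5 and −0.15 to 0.39 for mt-Nd6. Few counts limit the values of the 6 mitochondrial genes near 0, which had 60, 51 and 87 counts in knockouts, against 68, 49 and 70 in controls. The cause of these low counts was not tested.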
